A study of Mus musculus with 6 samples.

Results

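The immunity-related GTPases are a family of large GTPases that mouse cells switch on in response to interferon. Of the 49315 genes in the deposited count table, 8 are described here, and they were chosen by name. Of these, 7 are GTPases of the family (Irgm1, Irgm2, Igtp, Iigp1, Ifi47, Tgtp1 and Tgtp2). The other is the olfactory receptor name Olfr56, which was added for its counts, the highest of any olfactory receptor name, and for its place in the genome next to a GTPase cluster. The members were put together with earlier results of these libraries known, so their differences between the groups are a description of the family and not independent evidence for it. Of the 8 members, 8 passed the filter on low counts.

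RNA was measured in bEND.3 cells, an immortalized mouse brain endothelial line made with the polyoma virus middle T antigen. Cells were transfected with a cationic lipid (Lipofectamine) and an antisense LNA GapmeR, a short oligonucleotide whose DNA core recruits RNase H to cut the matching RNA. The GapmeR group (4 samples) received 100 nM of a GapmeR against the long non-coding RNA Gm39822, and the Negative Control group (2 samples) received 100 nM of a control GapmeR. Transfection, oligonucleotide class and dose were thus shared by all samples. Each group had 1 oligonucleotide in 1 cell line, so an effect of the Gm39822 RNA and an effect of that oligonucleotide on other RNAs cannot be told apart. The labels do not say whether replicates came from separate cultures, and p-values therefore measure the spread between these samples, which may be technical. The comparison asks how the transcriptome of the cells changed after knockdown of Gm39822.

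Total counts came to 33074972, 37117934, 30264086 and 31067184 for GapmeR 1 to 4, against 29261988 and 34266811 for Negative Control 1 and 2. Levels are given as CPM, the counts scaled to each library's total and by its TMM factor, and 3 counts equalled 0.0770 to 0.109 CPM, a limit that covers counting error only. The target Gm39822 was counted 2, 1, 4 and 2 times after the GapmeR and 61 and 56 times in the controls, so the libraries matched their labels. The most abundant gene of a list is taken as that with the highest mean CPM over the 6 samples, not scaled by gene length. Of 12 endothelial markers this was Cdh5, the cadherin of endothelial junctions. Cdh5 had 1471 to 1829 CPM in the GapmeR samples and 2383 to 2541 CPM in the controls. Per kilobase of exon (GENCODE vM39), Cldn5 stood above Cdh5, at means of 1033 against 562 CPM in the controls. All 12 endothelial markers passed the filter, 7 fell (Cdh5 log2 fold change -0.51, SE 0.09, adjusted p = 0.000348) and 1 rose, beside 20.0% of all genes tested called lower and 25.4% called higher. The largest changes, named after their values were seen, were in Emcn (-1.33), a surface sialoprotein, and Erg (1.12), a transcription factor. All 12 endothelial markers together had 7499, 6548, 7530 and 7465 CPM after the GapmeR, against 8873 and 8634 CPM in the controls. Macrophage markers were also present in every library, at a summed 229, 209, 353 and 386 CPM in GapmeR samples 1 to 4 and 178 and 173 CPM in the controls. GapmeR samples 3 and 4 therefore stood apart from the other libraries by the summed level of these genes, and the counts called lower are given with and without them. In bulk RNA, fewer cells of a type and less RNA per cell cannot be told apart.

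Immunity-related GTPases fall into a regulatory group and an effector group. The regulatory proteins, encoded by Irgm1, Irgm2 and Igtp (Irgm3), sit on the membranes of the cell and hold the effectors inactive there. The effectors, encoded by Iigp1 (Irga6), Ifi47 (Irgd), Tgtp1 and Tgtp2 (Irgb6), load onto the membrane around an intracellular parasite or bacterium and help to break it. They do so with the guanylate-binding proteins and with the machinery that conjugates small autophagy proteins to lipids. Interferon gamma drives the genes through the GAS element, and IRF1 and related factors act through the ISRE. Olfr56 belongs to the G protein-coupled receptors of the nose and is named for its coding sequence alone.

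Promoter sequences show what several of the genes share that the choice of members did not use. RefSeq promoters (GRCm38.p6) matched 7 of the 8 members, and the 250 bases before each start were searched on both strands for a GAS element, TTCNNNGAA, and for an ISRE core, GAAA repeated after any 2 bases. A GAS element was found in 4 and an ISRE core in 5 of the 7, and Irgm2, Igtp, Tgtp1 and Tgtp2 held both. Of 32851 promoters searched in the same way, 7.02% held the GAS letters, 2.98% the ISRE letters and 0.332% both. The stretches below are the coding-strand letters around the matches, with the GAS and ISRE letters in capitals. They are shown because 4 of them carry the motifs in the same order and at the same spacing, with Irgm1, whose 2 ISRE matches overlap, for contrast.
Irgm1, chr11:48871423-48871462, minus strand: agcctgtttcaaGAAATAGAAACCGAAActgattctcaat
Irgm2, chr11:58214890-58214934, plus strand: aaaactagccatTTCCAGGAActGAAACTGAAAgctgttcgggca
Igtp, chr11:58199499-58199543, plus strand: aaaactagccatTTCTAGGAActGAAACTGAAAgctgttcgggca
Tgtp1, chr11:48992302-48992346, minus strand: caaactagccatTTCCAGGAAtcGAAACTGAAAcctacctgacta
Tgtp2, chr11:49064261-49064305, minus strand: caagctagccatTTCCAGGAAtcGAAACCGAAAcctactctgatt

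Irgm2 and Igtp differed at 1 of these 45 bases, Tgtp1 and Tgtp2 at 8, and Igtp and Tgtp1 at 12. The ISRE match began 64 bases before the start in Irgm2, 34 in Igtp, 77 in Tgtp1 and 70 in Tgtp2. In Irgm1 the matches began 30 and 24 bases before the start. Neither set of letters was found in the windows of Ifi47 and Olfr56. The window of Olfr56 lies before the start that RefSeq gives, and GENCODE vM39 begins the gene farther upstream, so for its longer transcripts this window is not a promoter. GENCODE vM39 also begins Irgm2 farther upstream, within Igtp, with a span of 23.2 kb against 7807 bases in RefSeq. The same limit holds for the longer transcripts of Irgm2. A match is a description of the letters and does not show a bound factor.

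Each of the 7 GTPases was lower in the GapmeR samples than in the controls, and in each one every GapmeR sample lay below both controls. The fall was modest in the regulatory genes, in Iigp1 and in Ifi47, whose GapmeR means were 68.9% to 77.0% of the control means. It was larger in Tgtp1 and Tgtp2, whose means were 41.1% and 40.5% of the control means. In edgeR's quasi-likelihood fit over all 18234 genes tested, 7 of 7 GTPases had an adjusted p-value under 0.05 and a lower level, and their median log2 fold change was -0.54. Of all genes tested, 20.0% were called lower and 45.3% were called in either direction, and the median log2 fold change was 0.03. The 3643 genes behind the 20.0% became 1930 without Negative Control sample 2, 2262 without Negative Control sample 1 and 2135 with scaling by library size only. With a change of at least 1.5-fold also required, 2 of the 7 GTPases, Tgtp1 and Tgtp2, and 7.62% of all genes were called lower. All GapmeR samples lay below both controls in 27.3% of all genes tested.

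**Figure D1:**
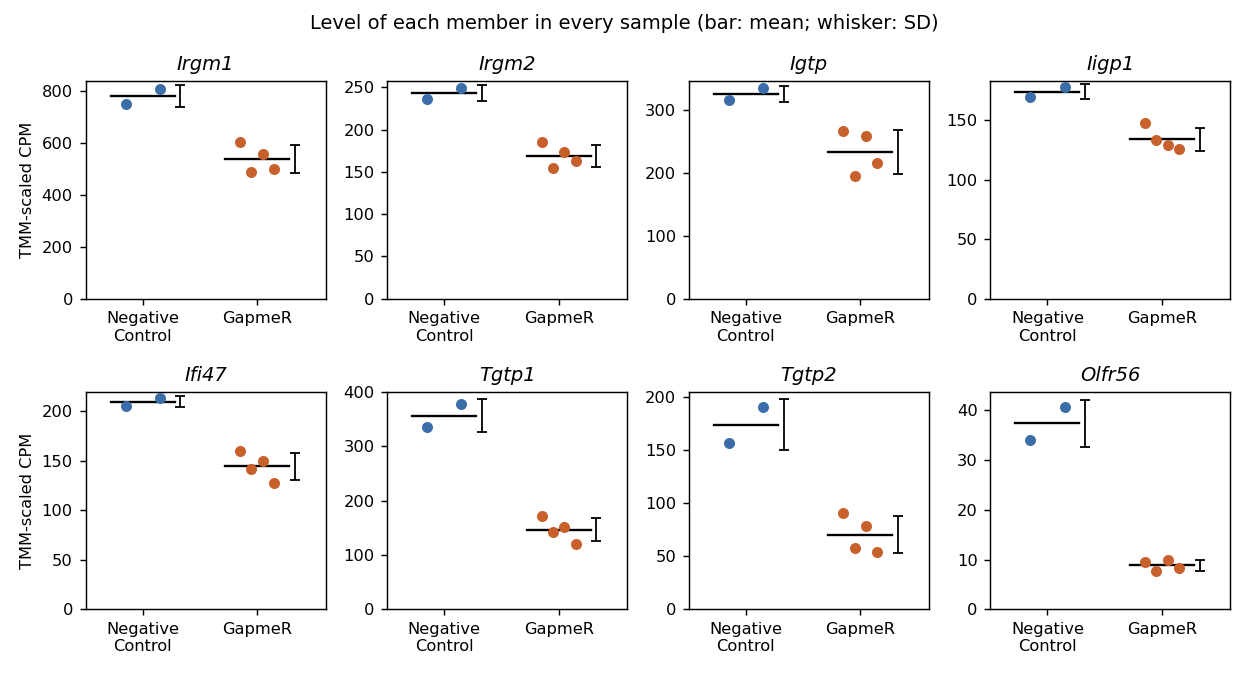
Level of each member in every sample, in TMM-scaled CPM on linear axes that start at 0 (blue, 2 Negative Control samples; orange, 4 GapmeR samples; bar, group mean; whisker, SD). In each of the 8 panels every GapmeR point lies below both control points. Relative to each gene's control mean, the fall is largest in Tgtp1, Tgtp2 and Olfr56.

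Among the regulatory genes, Irgm1 had 601, 486, 557 and 500.0 CPM in GapmeR samples 1 to 4 and 749 and 807 CPM in the controls. GapmeR sample 1 was the highest and sample 2 the lowest of the treated samples, and the groups did not overlap. The means were 536 ± 53.2 CPM (SD, n = 4) against 778 ± 41.3 CPM (SD, n = 2), and the log2 fold change was -0.54 (SE 0.09, edgeR adjusted p = 0.000125). Irgm1 protein is known for its role in autophagy and in the control of mycobacteria.

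Irgm2, a regulatory GTPase of the Golgi, had 185, 154, 173 and 163 CPM in the GapmeR samples and 236 and 249.8 CPM in the controls. The treated samples held the same order as in Irgm1 for the highest and the lowest. Their mean was 169 ± 13.3 CPM (SD, n = 4) against 243 ± 9.43 CPM (SD, n = 2), and the log2 fold change was -0.52 (SE 0.08, edgeR adjusted p = 5.42e-05).

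Igtp, the regulatory GTPase of the endoplasmic reticulum and of lipid droplets, had 268, 195, 260.0 and 216 CPM in the GapmeR samples and 317 and 336 CPM in the controls. Among its treated samples, 1 and 3 were high and 2 and 4 were low. The means were 235 ± 35.1 CPM (SD, n = 4) against 326 ± 13.3 CPM (SD, n = 2), and the log2 fold change was -0.48 (SE 0.11, edgeR adjusted p = 0.00439). Without Negative Control sample 2 the difference was -0.41 and the adjusted p-value rose to 0.0741, so the call of Igtp rests on that library.

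The effector Iigp1, which loads early onto parasite vacuoles, had the smallest change of the 7. It had 148, 133, 129 and 126 CPM in the GapmeR samples and 169 and 178 CPM in the controls. GapmeR sample 1 was nearest to the controls, and the groups did not overlap. The means were 134 ± 9.76 CPM (SD, n = 4) against 174 ± 6.24 CPM (SD, n = 2), and the log2 fold change was -0.38 (SE 0.08, edgeR adjusted p = 0.000827).

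Ifi47 had 159.9, 141, 149.9 and 128 CPM in the GapmeR samples and 206 and 214 CPM in the controls. GapmeR sample 4 was the lowest, and the gap between the groups was wider than the range of the controls. The control mean was 209.8 ± 5.65 CPM (SD, n = 2), the GapmeR mean was 145 ± 13.7 CPM (SD, n = 4), and the log2 fold change was -0.54 (SE 0.08, edgeR adjusted p = 7.27e-05).

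Tgtp1 and Tgtp2 encode nearly the same protein, first described as a GTPase of T cells. Tgtp1 had 172, 143, 151 and 120.0 CPM in the GapmeR samples and 335 and 378 CPM in the controls. Tgtp2 had 90.5, 58.2, 78.9 and 53.8 CPM in the GapmeR samples and 157 and 191 CPM in the controls. Both genes were highest in GapmeR sample 1 and lowest in GapmeR sample 4 among the treated libraries. For Tgtp1 the means were 147 ± 21.6 CPM (SD, n = 4) against 356 ± 30.6 CPM (SD, n = 2), and the log2 fold change was -1.28 (SE 0.11, edgeR adjusted p = 2.4e-06). For Tgtp2 they were 70.3 ± 17.3 CPM (SD, n = 4) against 174 ± 23.9 CPM (SD, n = 2), and the log2 fold change was -1.31 (SE 0.24, edgeR adjusted p = 0.00738).

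Reads of these paired genes could be divided between them by the alignment, or left uncounted where they match both. Of the 150-base windows of their GENCODE vM39 transcripts, 61.2% of those of Tgtp1 were also found in Tgtp2, and 68.4% of those of Tgtp2 in Tgtp1. In the other members at most 3.57% of windows were shared with any other gene. Tgtp1 also shares 317 exon bases with the same-strand gene Gm12185. Summed to 1 feature, Tgtp1 and Tgtp2 had a log2 fold change of -1.29 (SE 0.14, edgeR adjusted p = 7.97e-05), so their joint fall does not depend on how the reads were divided between them.

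Within a sample, the ratio of one member to another does not depend on scaling. The Irgm1 to Irgm2 ratio of counts was 3.24, 3.15, 3.22 and 3.06 after the GapmeR, against 3.17 and 3.23 in the controls. The Irgm2 to Igtp ratio was 0.693, 0.793, 0.665 and 0.758 against 0.746 and 0.744, and the Tgtp1 to Tgtp2 ratio was 1.90, 2.45, 1.92 and 2.23 against 2.13 and 1.98. The groups overlapped in all 3 ratios. The log2 ratios differed by -0.01, -0.04 and 0.04, with two-sided exact permutation p-values of 0.667, 0.8 and 0.8, all 0.8 after Benjamini-Hochberg adjustment over the 3 pairs. The smallest p-value that 4 against 2 samples allow is 0.0667, so these tests could not have passed a threshold of 0.05.

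The 7 GTPases together had 1625, 1310.5, 1499 and 1306 CPM in the GapmeR samples and 2169 and 2354 CPM in the controls, so the GapmeR mean was 63.5% of the control mean. The share of this sum taken by Tgtp1 was 9.19% to 10.9% in the GapmeR samples and 15.4% to 16.1% in the controls. The share of Tgtp2 was 4.12% to 5.57% against 7.23% to 8.10%. Irgm1 took 37.01% to 38.3% of the sum in the GapmeR samples and 34.3% to 34.5% in the controls. The shares of Irgm2, Igtp, Iigp1 and Ifi47 were likewise higher in every GapmeR sample than in both controls. None of the shares overlapped between the groups, and the Tgtp genes made up less of the family after the GapmeR.

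Levels of the members were compared with each other only as CPM per kilobase of exon. Lengths are from GENCODE vM39, which is not the annotation the reads were counted on. The most abundant gene of each list was instead named by mean CPM, which is not scaled by length. In the controls Irgm1 was the highest at a mean of 122 CPM per kilobase, followed by Tgtp1 at 109, Ifi47 at 73.8, Igtp at 71.6, Irgm2 at 65.0, Tgtp2 at 59.2, Iigp1 at 27.3 and Olfr56 at 8.14. The ranges of Ifi47 and Igtp overlapped, as did those of Irgm2 and Tgtp2. In the GapmeR samples the order was Irgm1 at 84.3, Igtp at 51.5, Ifi47 at 50.9, Irgm2 at 45.2, Tgtp1 at 44.9, Tgtp2 at 23.9, Iigp1 at 21.03 and Olfr56 at 1.92. Neighbours from Igtp to Tgtp1 overlapped there, as did Tgtp2 and Iigp1. Tgtp1 thus stood just below Irgm1 in the controls and below Irgm2 after the GapmeR, while Irgm1 was first in both groups. Olfr56 was last in both with its GENCODE vM39 exon length of 4.58 kb. RefSeq gives it 1215 bases, so its place against Iigp1 in the controls depends on the length used.

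Reads counted on Olfr56 numbered 323, 298, 305 and 266 in GapmeR samples 1 to 4, against 932 and 1295 in the controls. Scaled, these were 9.53, 7.65, 9.83 and 8.23 CPM against 34.0 and 40.6 CPM, with means of 8.81 ± 1.04 CPM (SD, n = 4) and 37.3 ± 4.63 CPM (SD, n = 2). The groups lay far apart, with the control mean 4.23-fold above the GapmeR mean and a log2 fold change of -2.09 (SE 0.11). No test is given because its counts were a reason for choosing it. Of 1405 olfactory receptor names in the table, 150 had any counts and 15 passed the filter. Olfr56 had 3419 counts over the 6 samples, and the next name, Olfr1372-ps1, had 1166. Olfr56 made up 41.5%, 32.5%, 41.8% and 36.7% of all counts on olfactory receptor names in the GapmeR samples, against 77.2% and 78.9% in the controls. The other names together had 456, 618, 424 and 459 counts in the GapmeR samples, against 276 and 347 in the controls. The lower share thus also reflects more counts on the other names.

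The position of Olfr56 bears on what its counts are. In mm10 (RefSeq) it lies at chr11:49134173-49135387 on the plus strand, beside the GTPase cluster that holds Irgm1 (chr11:48865245-48871420, minus strand), Tgtp1 (chr11:48985329-48992246, minus), Tgtp2 (chr11:49057196-49064212, minus) and Ifi47 (chr11:49076587-49096987, plus). Igtp (chr11:58199556-58207592, plus) and Irgm2 (chr11:58214977-58222783, plus) lie in another cluster of the same chromosome, whose start is 9.06 Mb from the end of Olfr56. Olfr56 had been taken to lie at the Irgm2 and Igtp locus, which these coordinates do not bear out. Iigp1 is on another chromosome (chr18:60373616-60392634, plus).

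RefSeq gives Olfr56 1215 bases. In GENCODE vM39 (GRCm39) the same Ensembl identifier is named Or2v1 and spans 84.7 kb, from chr11:48941560 to 49026214, with 7 merged exons of which the last has 1215 bases. Tgtp2 lies within this span on the opposite strand, without shared exon bases, and Ifi47 lies within it on the same strand. The second merged exon of Olfr56 (111 bases) is also an exon of Ifi47, which makes 2.42% of the exon bases of Olfr56. No 150-base window of its transcripts was found in another gene. Counts on Olfr56 may thus come from long transcripts that begin among the GTPases, and whether they cover the receptor's coding exon was not tested, since the files hold 1 count per gene.

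Against its same-strand neighbour, Olfr56 had 5.96, 5.41, 6.56 and 6.45 counts per 100 counts of Ifi47 in the GapmeR samples, against 16.5 and 19.0 in the controls. The groups did not overlap, so Olfr56 counts did not follow those of Ifi47 in a fixed ratio. Summed to 1 feature, Ifi47 and Olfr56 had a log2 fold change of -0.69 (SE 0.08). Olfr1396, an olfactory receptor name inside the GENCODE span of Olfr56 on the opposite strand, had 13, 27, 15 and 16 counts in the GapmeR samples, against 5 and 0 in the controls. It had far fewer counts than Olfr56 in every library and lay in the opposite order between the groups.

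The family has 10 other names in the table, of which 9 passed the filter, 8 fell and 1 was not called, beside 20.0% of all genes tested called lower, and the median log2 fold change was -0.90. Among those with at least 1 CPM on average, the largest changes were in F830016B08Rik, with 3.19, 2.05, 2.80 and 1.70 CPM in the GapmeR samples and 6.93 and 8.49 CPM in the controls (log2 fold change -1.67, SE 0.20, edgeR adjusted p = 1.04e-05). Gm5431 had 11.9 to 20.2 CPM against 43.6 and 54.5 CPM (-1.59, SE 0.22, adjusted p = 0.00153), and Gm4841 had 12.8 to 19.6 CPM against 38.5 and 51.2 CPM (-1.48, SE 0.19, adjusted p = 0.000369). The most abundant by mean CPM over the 6 samples, 9930111J21Rik2, had 59.2 to 69.95 CPM against 97.7 and 116 CPM (-0.73, SE 0.08, adjusted p = 2.77e-06). Per kilobase of exon, Gm12250 stood above 9930111J21Rik2 in both groups, at means of 23.5 against 9.05 CPM after the GapmeR. GENCODE vM39 gives Gm12250 1 transcript of 1274 bases, labelled a transcribed processed pseudogene, while its RefSeq gene spans 6356 bases. That order may thus depend on the length used. In F830016B08Rik, Gm5431, Gm4841 and 9930111J21Rik2 the GapmeR samples lay below both controls, as they did in 27.3% of all genes tested.

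Gm12185 was the name that was not called. It had 13.6, 10.0, 12.4 and 10.4 CPM in the GapmeR samples and 9.09 and 10.9 CPM in the controls, and the groups overlapped (log2 fold change 0.21, SE 0.14, edgeR adjusted p = 0.22). RefSeq promoters matched 6 of the 10 names, and Gm12185 and Gm12250 (Irgb10) were those with both motifs. The promoter of Gm12185 carries them at the spacing seen in Tgtp1.
Gm12185, chr11:48927236-48927280, minus strand: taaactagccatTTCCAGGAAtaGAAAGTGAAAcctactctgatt
Gm12250, a GTPase known for acting on bacterial membranes, had 24.3 to 35.1 CPM in the GapmeR samples and 65.3 and 70.1 CPM in the controls (log2 fold change -1.18, SE 0.14, edgeR adjusted p = 9.61e-05). Both motifs were thus present in a family gene that fell and in one that was not called, and Ifi47 fell with neither set of letters in its window. GENCODE vM39 gives Gm12185 a span of 87.7 kb, against 22527 bases in RefSeq. Its window may therefore not be the promoter of its longer transcripts.

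**Figure D2:**
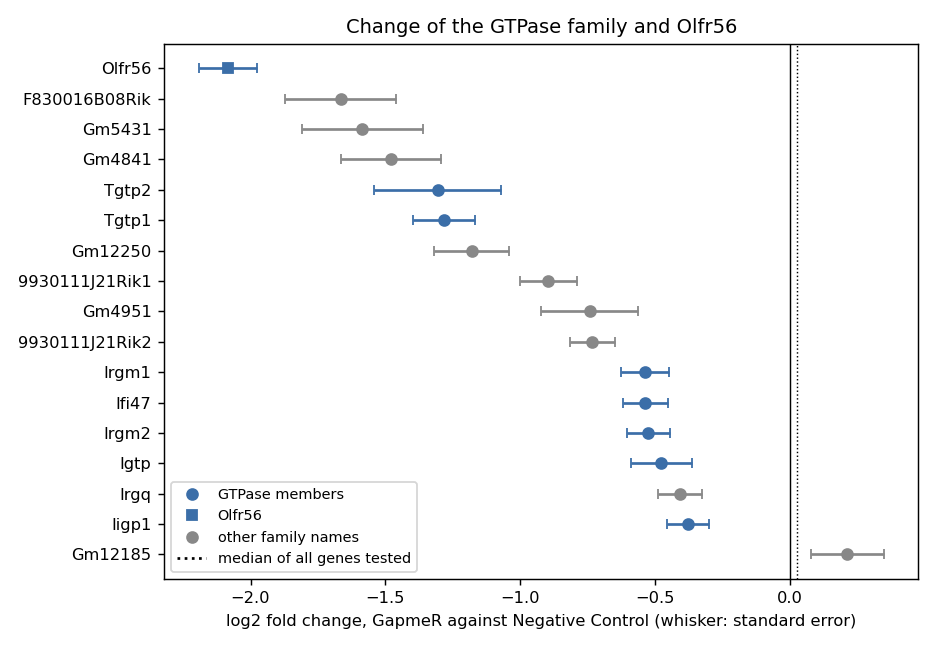
Log2 fold change of the GTPase members (blue circles), Olfr56 (blue square, no test) and the other tested family names (grey) after GapmeR against Negative Control; whiskers are standard errors and the dotted line is the median of all genes tested. All points except that of Gm12185 lie to the left of 0, from -2.09 for Olfr56 to -0.38 for Iigp1.

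Most of the family genes on chromosome 11 lie in 2 clusters. In GRCm39 the interval from Irgm1 to the end of Olfr56 is 273 kb, and Igtp and Irgm2 span 23.8 kb. Igtp and Irgm2 share 162 exon bases on the same strand in GENCODE vM39, so their counts may not be wholly separate. The target Gm39822 lies between the clusters, 2.76 Mb beyond Olfr56 and 6.29 Mb before Igtp. Of the genes outside the family that begin within 300 kb of either cluster, 25 passed the filter, of which 4 fell, 7 rose and 14 were not called, and their median log2 fold change was 0.01.

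The 4 that fell were Psme2b (log2 fold change -0.63), Trim41 (-0.43), Mgat1 (-0.38) and Larp1 (-0.32), named after their values were seen. Psme2b, a copy of a proteasome activator gene, lies within the first cluster. Rack1, a ribosomal scaffold protein next to Trim41, had a log2 fold change of -0.15 and was not called, and Mrpl22, a mitochondrial ribosomal protein beside the second cluster, had -0.04 and was not called. Of the 7 that rose, all but Zfp692 averaged under 1 CPM. The 4 of 25 neighbours that fell stand beside 20.0% of all genes called lower, and the 7 that rose beside 25.4% called higher.

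**Figure D3:**
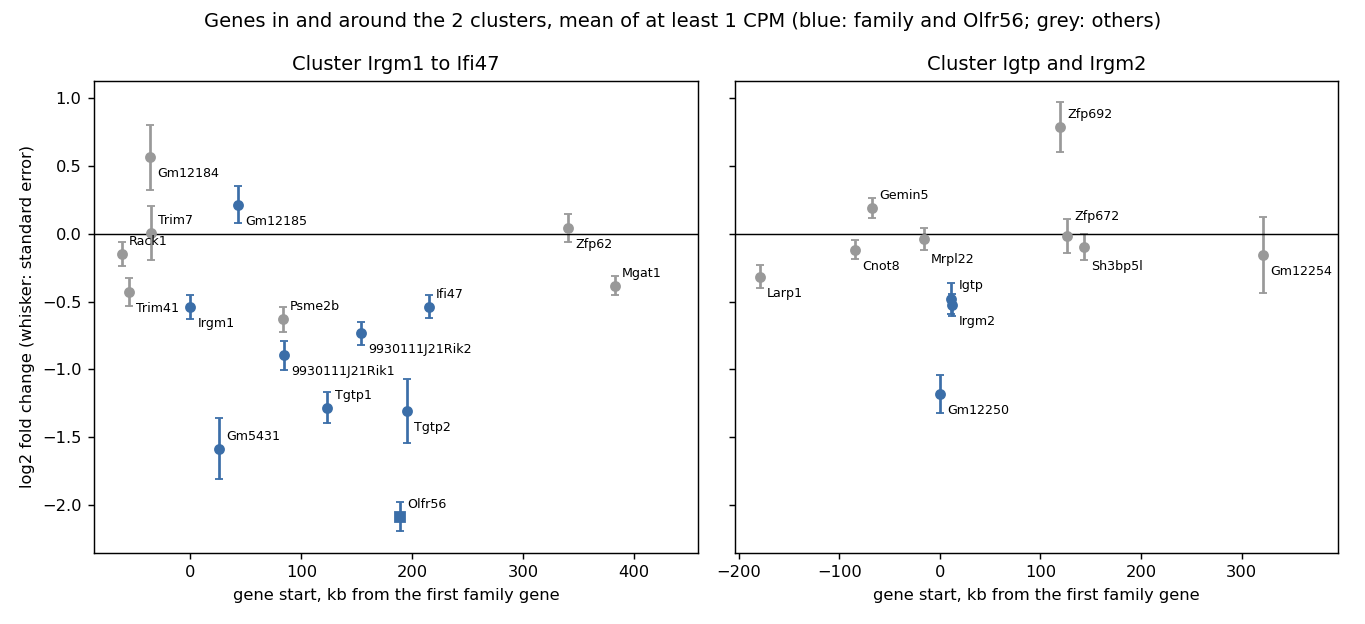
Log2 fold change (whisker, standard error) of family genes and Olfr56 (blue; square, Olfr56) and of other genes (grey) with a mean of at least 1 CPM, by the distance of the gene start in kb from the first family gene of each of 2 clusters. Family genes except Gm12185 lie below 0 in both panels, while neighbours such as Rack1, Mrpl22 and Zfp62 lie close to 0.

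The receptor and signalling genes that act upstream of the family were mixed. Of 16 tested genes of the interferon gamma receptor, JAK-STAT and IRF list, 7 fell, 1 rose and 8 were not called, and the median log2 fold change was -0.20. Over all genes tested the shares were 20.0% lower and 25.4% higher. Ifng itself had at most 1 count in a library and was not tested. Irf1, an interferon-induced activator of the GTPase genes, had 89.0, 73.4, 91.7 and 87.2 CPM in the GapmeR samples and 153 and 159 CPM in the controls (log2 fold change -0.87, SE 0.08, edgeR adjusted p = 4.12e-07). The groups lay far apart.

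Ifngr2, the signalling chain of the interferon gamma receptor, had 47.2 to 50.4 CPM in the GapmeR samples and 69.3 and 69.9 CPM in the controls (log2 fold change -0.50, SE 0.07, edgeR adjusted p = 1.73e-05). Ifngr1, the ligand-binding chain, had 30.2 to 35.2 CPM against 34.4 and 35.6 CPM, and the groups overlapped. Stat2, the most abundant gene of the list, had 427 to 471 CPM against 504 and 559 CPM (-0.22, SE 0.08, adjusted p = 0.03). The gene that rose was Tyk2, a kinase of the interferon alpha and beta receptor, at 37.8 to 39.9 CPM against 32.2 and 33.5 CPM (0.25, SE 0.07, adjusted p = 0.0128). Of the kinases of the interferon gamma receptor, Jak1 fell (-0.29) and Jak2 was not called (-0.05), and the difference between them was not tested. Ifngr1, Jak1 and Jak2 are named beside their partners after their values were seen. The 7 that fell became 3 with scaling by library size only and 3 without Negative Control sample 2.

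Guanylate-binding proteins, a second family of interferon-induced GTPases that gather at the same vacuoles, were measured next. Of 11 tested, 7 fell, 1 rose and 3 were not called, where 20.0% of all genes fell and 25.4% rose, and the median log2 fold change was -0.75. Gbp10 had 21.7, 14.4, 19.2 and 15.2 CPM in the GapmeR samples and 46.7 and 54.5 CPM in the controls (log2 fold change -1.52, SE 0.15, edgeR adjusted p = 2.5e-05). Gbp5, which takes part in inflammasome activation, had 66.4 to 96.1 CPM against 160.1 and 189 CPM (-1.10, SE 0.16, adjusted p = 0.000974). Gbp3, the most abundant by mean CPM over the 6 samples, had 368 to 456 CPM against 449 and 504 CPM. The groups overlapped and Gbp3 was not called (-0.23, SE 0.09, adjusted p = 0.059). In the controls Gbp2b was higher than Gbp3, at 514 and 563 CPM.

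Gbp8 went the other way. It had 15.05, 13.4, 12.2 and 14.3 CPM in the GapmeR samples and 3.03 and 3.29 CPM in the controls, a log2 fold change of 2.12 (SE 0.14, edgeR adjusted p = 3.16e-09). Its treated samples lay close together and far above both controls.

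The autophagy conjugation genes, whose proteins the effector GTPases need to reach vacuoles, changed little. Of 12 tested, 3 fell, none rose and 9 were not called, and the median log2 fold change was -0.08. The share that fell was near the 20.0% of all genes called lower. The 3 were Atg7, the activating enzyme (-0.37, SE 0.08, edgeR adjusted p = 0.000864), Gabarapl2, a conjugated protein (-0.34, SE 0.11, adjusted p = 0.0189), and Atg12, the ubiquitin-like partner of Atg5 (-0.26, SE 0.07, adjusted p = 0.0106). Gabarap, the most abundant, had 266 to 287 CPM against 304 and 305 CPM and was not called (-0.13). The count of 3 became 1 with scaling by library size only and 1 without either control sample.

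Genes for ubiquitin and for the adaptors that bind ubiquitin-coated vacuoles were also counted. Of 10 tested, 6 fell, 2 rose and 2 were not called, beside 20.0% of all genes called lower and 25.4% called higher, and the median log2 fold change was -0.29. The adaptors Optn (log2 fold change -0.55, SE 0.08, edgeR adjusted p = 2.44e-05) and Nbr1 (-0.48, SE 0.07, adjusted p = 6.44e-05) fell. Sqstm1, the adaptor p62 and the most abundant gene of the list by mean CPM, rose from 1761 and 1804 CPM in the controls to 2562, 2269.7, 2639 and 2498 CPM (0.48, SE 0.08, adjusted p = 0.000226). Tax1bp1 rose too (0.35). Per kilobase of exon, Ubb stood above Sqstm1, at means of 531 against 217 CPM in the controls and 428 against 304 CPM after the GapmeR. The 6 that fell became 3 with scaling by library size only.

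**Figure D4:**
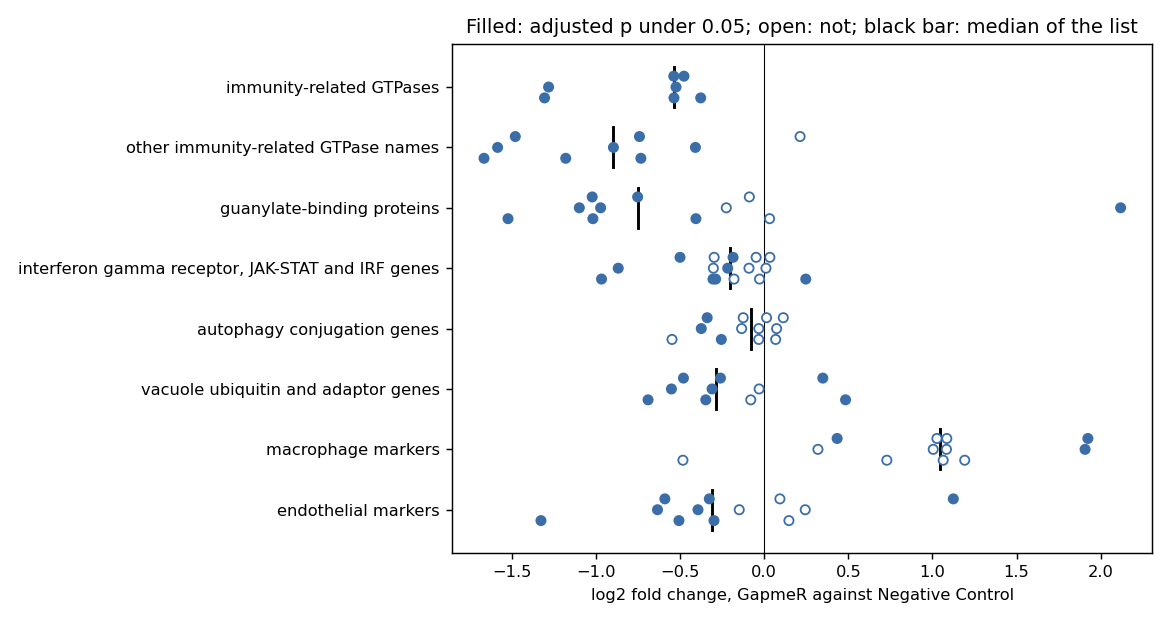
Log2 fold change of each tested gene by list after GapmeR against Negative Control (filled, edgeR adjusted p under 0.05; open, not; black bar, median of the list). The medians are -0.54 for the GTPase members, -0.90 for the other family names, -0.75 for guanylate-binding proteins and -0.08 for autophagy conjugation genes.

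Markers of other cell types were measured beside these genes. Of 12 macrophage markers 12 passed the filter, 3 rose, where 25.4% of all genes tested were called higher, none fell and none was at 0. Their median log2 fold change was 1.05, against 0.03 for all genes tested. The most abundant by mean CPM over the 6 samples, Lyz2, had 79.1, 73.4, 167 and 206 CPM in the GapmeR samples and 68.8 and 62.1 CPM in the controls. Cd68 was higher than Lyz2 in GapmeR samples 1 and 2 (123 and 113 CPM) and in the controls (87.2 and 89.4 CPM). All GapmeR samples lay above both controls in 7 of the 12, as they did in 31.9% of all genes tested. Their summed level, given above, was highest in GapmeR samples 3 and 4, though single markers such as Cd14 and Aif1 held another order. Of the 7 GTPases, Iigp1, Ifi47, Tgtp1 and Tgtp2 were lowest in GapmeR sample 4, and Irgm1, Irgm2 and Igtp were lowest in GapmeR sample 2. With GapmeR samples 3 and 4 left out, a choice made after seeing the data, the same 7 GTPases fell, with a median log2 fold change of -0.49, and so did 8 of the other family names, 7 genes of the interferon gamma list, 7 guanylate-binding proteins, 2 autophagy genes and 6 ubiquitin and adaptor genes. In that fit 3203 of all 17524 genes tested were called lower and 4458 higher. Of 9 mural cell markers 7 were tested and 2 rose, again near the 25.4% of all genes, and the median log2 fold change was 1.09. The most abundant by mean CPM over the 6 samples, Myh11, a smooth muscle myosin, had 5.37 to 5.93 CPM against 0.365 and 0.251 CPM. In the controls Acta2 and Tagln had higher means than Myh11, at 0.579 and 0.522 against 0.308 CPM. The 9 together had 8.62, 8.88, 13.2 and 9.84 CPM against 2.30 and 2.19 CPM, and none was at 0 in every library. Of 8 T lymphocyte markers, Cd3g and Trac were at 0 in all 6 libraries, and Lck, the most abundant and the sole one tested, had 3.90 to 5.25 CPM against 4.31 and 3.85 CPM. What part the endothelial, macrophage and mural markers have in the differences of the GTPases was not tested.

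Genes whose pattern over the 6 samples was most like that of the GTPases were ranked by Pearson's r between their log2 CPM and the mean centred log2 CPM of the 7. Among 8862 genes with a mean of at least 10 CPM, the closest were B3gnt3 (r = 0.999), Pls3 (0.998), Phf11b (0.998), Gm8995 (0.998) and Mapk14 (0.998). Their log2 fold changes were -0.72, -0.72, -1.22, -1.03 and -0.40. Olfr56, which is not part of that mean, had an r of 0.970. An r of 0.95 was reached by 836 genes, 9.43% of those ranked, and the 6 points are samples of 2 groups that share their libraries.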

How the data were processed

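Per the labels and the study's methods, RNA was depleted of ribosomal RNA, sequenced as paired 150-base reads, trimmed (Trimmomatic 0.36), and aligned to mm10 with STAR 2.5.2b and Ensembl transcripts in bcbio-nextgen. Subread 1.5.2 is also listed in the submitters' processing notes. The authors deposited whole-number counts per Ensembl gene, without normalization. The strand setting and Ensembl release are not given in the sources used here, so reads of overlapping or antisense genes cannot be told apart. The study states 4 samples per group; 4 GapmeR and 2 Negative Control samples were analysed here, and 1 further column of per-sample counts was not used. Members and gene lists were chosen with earlier results of these data known.

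The 18234 of 49315 genes that reached 5 counts in 2 or more samples were fitted with edgeR 4.0.16 (R 4.3.3; TMM, robust quasi-likelihood) and p-values adjusted by Benjamini-Hochberg over all of them. The biological coefficient of variation was 8.42%. CPM values are TMM-scaled, and TMM factors were 1.02 to 1.05 (GapmeR) and 0.936 and 0.932 (controls). Between 22830 and 23566 genes had counts in a GapmeR sample and 20573 and 21087 in the controls. Replicates differed by more than sampling noise (chi-square per degree of freedom 5.87 to 28.0). The pairs that hold GapmeR sample 2 had the highest values, from 20.5 to 28.0. Ratios used log2 of counts plus 0.5. Genes named were all members, up to 3 genes per list with the largest called change and at least 1 CPM, the most abundant gene of each list, the 5 most alike in pattern, genes that overlap or adjoin a member, and the next olfactory receptor name; others are said to be chosen later. Some genes that this rule names are not reported here. In simulated data for this comparison (17720 genes), 34 of 98 genes changed by 0.5 (log2) were recovered and 78 of 97 changed by 1.3, and 18 of 19 and 40 of 41 among those whose mean reached 1000 counts. Of its 128 calls 16 were false, a larger share than the threshold of 0.05 aims at. Few genes were changed in the simulation, as many up as down, while 45.3% of all genes tested were called in the data. Its rates therefore need not hold for the data. Alternatives used DESeq2 1.42.0 and limma 3.58.1, and other scripts Python 3.11.15, pandas 2.3.3 and scipy 1.17.1. Coordinates are from RefSeq (GRCm38.p6) and GENCODE vM39 (GRCm39) as named.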

Additional observations from a re-analysis of the deposited data

Results flagged for a closer look

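In 7 of 74 groups of 4 GapmeR samples tested, 1 sample lay far from the other 3, by the ratio of its gap to the whole range (above Dixon's critical value). Chance gives about 1 in 20 groups. No member of the GTPase family was among them.

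GapmeR sample 1 was high in Jak2 (67.0 CPM against 58.2 to 58.7 in the others, ratio 0.942), in Gbp4 (358 against 324 to 329 CPM, ratio 0.855) and in Atg4b (50.2 against 46.0 to 46.5 CPM, ratio 0.870). GapmeR sample 2 was low in Stat2 (427 against 465 to 471 CPM, ratio 0.863) and in the summed endothelial markers (6548 against 7465 to 7530 CPM, ratio 0.935). GapmeR sample 3 was low in Atg5 (41.1 against 42.9 to 43.2 CPM, ratio 0.833), and GapmeR sample 4 was low in Tax1bp1 (122 against 125.6 to 126.1 CPM, ratio 0.882).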

How the results depend on the processing

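All 8 members stayed lower under every alternative that gave them a fold change, and the adjusted p-values of the 7 GTPases stayed under 0.05 in each except for Igtp without Negative Control sample 2 (-0.41, adjusted p = 0.0741). With scaling by library size only, the median log2 fold change of all genes moved from 0.03 to 0.17 and that of the GTPases to -0.39, the share of calls that were lower from 44.1% to 25.9%, and the counts of lower genes became 3 for the interferon gamma list, 1 for the autophagy list, 3 for the ubiquitin and adaptor list and 2135 for all genes, with 8 genes of the lists higher instead of 4. With at least a 1.5-fold change required, lower counts were 2 for the GTPases, 2 for the interferon gamma list, 0 for the autophagy list, 1 for the ubiquitin and adaptor list and 1390 for all genes, with 1 gene of the lists higher, while 7 other family names and 6 guanylate-binding proteins were still lower and 3238 of all genes higher. Leaving out each sample in turn gave 6 to 7 GTPases, 7 to 8 other family names, 3 to 7 interferon gamma, 6 to 8 guanylate-binding, 1 to 4 autophagy and 4 to 6 ubiquitin and adaptor genes lower, 3 to 4 genes of the lists higher, and 1930 to 3948 lower and 3302 to 4800 higher genes overall. All genes lower came to 2262 without Negative Control sample 1 and 1930 without Negative Control sample 2, where the single control left is assumed to vary like the other samples. The ratios within a sample changed sign when a sample was left out, with log2 differences of -0.0295 to 0.00148 for Irgm1 to Irgm2, of -0.0812 to 0.00306 for Irgm2 to Igtp and of -0.0316 to 0.0926 for Tgtp1 to Tgtp2, and the cause was not tested.

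Replicate numbers 1 and 2 are shared by both groups, and whether they pair the samples is not known. Deviations of same-numbered samples from their group means correlated at -0.113 and 0.176 over 8870 genes. The deviations of the 2 controls are equal and opposite by construction, so these correlations cannot decide it. With the replicate block, on 4 samples, 7813 genes were called instead of 8268, of which 7112 were shared, and the members had -0.50 (Irgm1), -0.50 (Irgm2), -0.49 (Igtp), -0.29 (Iigp1), -0.46 (Ifi47), -1.16 (Tgtp1), -1.23 (Tgtp2) and -2.10 (Olfr56). Each GTPase had at least 1739 counts in every library, and Olfr56 at least 266.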
